A study of Mus musculus with 32 samples.

Results

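The cholesterol exporters and the genes of the liver X receptor (LXR) circuit were examined as 8 genes picked by name: Abca1, Abcg1, Nr1h2, Nr1h3, Rxra, Mylip, Lpcat3 and Pltp. All 8 were found by Entrez identifier among the 24885 identifiers of the count table. They were measured in bone marrow-derived macrophages, which are grown from mouse marrow under the growth factor M-CSF. The cells either lacked Trem2 (T2KO), the gene of a lipid-sensing surface receptor, or were wild type (WT), and the labels give the strain of both as C57BL/6. Each genotype was kept in low or normal M-CSF, and each of these cultures was given LPS, a bacterial product that starts the inflammatory response, or was not. That makes 8 groups of 4 libraries, 32 in all: T2KO and WT cells in low M-CSF with LPS, in normal M-CSF with LPS, in low M-CSF without LPS and in normal M-CSF without LPS. The protocol in the labels describes an overnight culture in complete RPMI with LCCM at 0.5% or 10%, and LPS at 10 ng/ml for 4 hours in some samples. No label joins low and normal M-CSF to these percentages, so taking 0.5% as low is an inference. The labels trace the Trem2-deficient mice to earlier work and do not say which part of the gene they lack. The labels name neither the mice nor the cultures behind the 4 libraries of a group, so each p below measures the spread between libraries, which may be technical.

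Macrophages take up cholesterol with lipoproteins and dying cells and cannot break down its ring system, so they have to export or store it. Oxysterols and the sterol precursor desmosterol bind the LXRs, nuclear receptors that pair with the retinoid X receptor on DNA and switch on sterol export. Nr1h3 encodes LXR alpha, Nr1h2 encodes LXR beta and Rxra encodes the retinoid X receptor alpha. Among the classic LXR target genes, Abca1 encodes the transporter that loads cholesterol and phospholipid onto lipid-poor apolipoprotein A-I, and Abcg1 encodes the transporter that passes cholesterol on to HDL. Mylip encodes IDOL, a ubiquitin ligase that sends lipoprotein receptors for degradation. Lpcat3 encodes an enzyme that puts polyunsaturated acyl chains into membrane phospholipids, and Pltp encodes the phospholipid transfer protein. LPS signalling through Toll-like receptors is known to interfere with LXR target genes in macrophages.

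In mm10 coordinates, Abca1 lies on chromosome 4 from 53030789 to 53159988 and Abcg1 on chromosome 17 from 31057694 to 31117984. The targeted gene Trem2 is on chromosome 17 as well, from 48346401 to 48352276, 17.2 Mb from Abcg1. Nr1h2 lies on chromosome 7 from 44549616 to 44553968, and 3 members share chromosome 2, Nr1h3 from 91184061 to 91202829, Rxra from 27676445 to 27763319 and Pltp from 164839518 to 164857708. Mylip lies on chromosome 13 from 45389742 to 45411940 and Lpcat3 on chromosome 6 from 124663094 to 124704716. RefSeq promoter sequences of build GRCm38.p6 matched 7 of the 8 members, and Abcg1 was not among them. The 250 bases before the start site are printed for Abca1, Mylip and Pltp, because these 3 genes were higher in low than in normal M-CSF in both genotypes with and without LPS. Capitals mark the best match to the LXR binding element, called DR4, where at most 3 of its 12 fixed letters differ on either strand. DR4 is AGGTCA, then 4 letters of any kind, then AGGTCA again.
Abca1: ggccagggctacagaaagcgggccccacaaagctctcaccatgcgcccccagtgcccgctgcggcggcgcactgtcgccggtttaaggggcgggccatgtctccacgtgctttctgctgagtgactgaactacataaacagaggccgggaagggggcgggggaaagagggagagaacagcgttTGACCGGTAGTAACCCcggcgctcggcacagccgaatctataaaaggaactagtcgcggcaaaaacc
Mylip: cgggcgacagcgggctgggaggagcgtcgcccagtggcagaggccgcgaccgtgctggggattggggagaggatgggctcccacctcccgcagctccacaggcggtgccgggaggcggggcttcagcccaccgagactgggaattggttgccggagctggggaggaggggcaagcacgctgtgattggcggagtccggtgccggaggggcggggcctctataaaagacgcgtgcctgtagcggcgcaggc
Pltp: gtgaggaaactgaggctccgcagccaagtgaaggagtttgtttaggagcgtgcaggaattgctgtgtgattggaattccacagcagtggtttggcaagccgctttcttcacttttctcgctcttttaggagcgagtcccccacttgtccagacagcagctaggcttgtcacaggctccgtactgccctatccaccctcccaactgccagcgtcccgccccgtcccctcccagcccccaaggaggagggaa
The Abca1 window is chr4:53159896-53160145 on the minus strand, the Mylip window chr13:45389492-45389741 on the plus strand and the Pltp window chr2:164857709-164857958 on the minus strand. The start site behind the Abca1 window lies inside the span given above, which ends at 53159988. Part of that window, with its match, therefore overlaps the gene as given. The match in Abca1 runs from 67 to 52 bases before the start site, reads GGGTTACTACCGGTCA on the opposite strand and differs from the element at 3 letters. The best matches in the Mylip and Pltp windows differ at 6 and 5 letters. Of the 32851 promoter windows of this length in the RefSeq table, 18.5% held a match within 3 differences, so such a match is common and describes the letters only. A second start site of Rxra also had one, and the windows of Nr1h2, Nr1h3 and Lpcat3 had their best matches at 4 differences.

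Total counts per library ran from 3068863 to 15585423 with a median of 5596111, and all 8 genes passed the filter on low counts, which left 11244 genes to test. Values below are CPM, counts scaled to a common library size with TMM factors. They come from the 3' ends of transcripts, so they are not compared between genes. The TMM factors were 0.598 to 0.752 in low M-CSF with LPS and 1.15 to 1.24 without. In normal M-CSF they were 0.903 to 1.01 with LPS and 1.27 to 1.37 without. A lower factor gives a higher CPM for the same share of counts, so changes by LPS, and changes by medium with LPS, depend on this scaling. Trem2 averaged 6.01 CPM in T2KO and 332 CPM in WT cells in low M-CSF with LPS, and 5.88 and 226 CPM in normal M-CSF with LPS. Without LPS it averaged 115 CPM in T2KO and 460 CPM in WT cells in low M-CSF, and 36.3 and 305 CPM in normal M-CSF, so 3' reads of Trem2 were lower in T2KO cells in all 4 conditions and were not at 0. Markers of macrophages were present in every group, at a summed 4386 to 11168 CPM over 7 genes. Group means of the sum, of which Lyz2 was the largest part, were higher in low than in normal M-CSF. So were those of Lyz2, Adgre1, Csf1r and Fcgr1. Cd68 was lower in low M-CSF in T2KO cells with LPS (422 against 692 CPM) and in WT cells with and without LPS. Cd14 was lower there without LPS in both genotypes, and Itgam in T2KO cells without LPS. Markers of neutrophils, of which 7 of 8 had a row, summed to 226 to 383 CPM in T2KO and 177 to 204 CPM in WT libraries in low M-CSF with LPS, and to 86.8 to 139 and 102 to 122 CPM in normal M-CSF with LPS. Without LPS they summed to 148 to 216 CPM in T2KO and 58.1 to 97.1 CPM in WT libraries in low M-CSF, and to 52.9 to 60.4 and 52.3 to 64.5 CPM in normal M-CSF. They thus moved with the medium, with LPS and, in low M-CSF, with the genotype. The part of such cells in the results below was not tested. Dendritic cell, lymphocyte, erythroid and stromal markers summed to at most 14.0, 1.24, 0.827 and 22.2 CPM in any library. Dendritic cell markers moved with the medium, at 5.65 to 10.0 CPM in low and 0 to 0.93 CPM in normal M-CSF in T2KO cells without LPS. Most of that sum in low M-CSF was Siglech, at a mean of 7.17 of 7.42 CPM. The stromal sum moved with LPS in low M-CSF, at 16.2 to 22.2 CPM with and 1.54 to 2.93 CPM without LPS in WT cells. Most of that rise was Pdgfrb, at a mean of 16.01 CPM with and 0.667 CPM without LPS. Dcn averaged 1.09 and 0.202 CPM, and Col1a1, Col1a2 and Col3a1 had means of 0.101 to 0.686 CPM in both groups. Whether these cell types themselves changed was not tested, and neither was their part in the results. In bulk RNA, fewer cells of a type and less RNA per cell cannot be told apart. Within groups, libraries 1 and 3 and libraries 2 and 4 were mostly closer to each other (median chi-square per degree of freedom 6.38 over 16 pairs) than the other pairings (27.6 over 32 pairs). Exceptions were libraries 1 and 3 of WT cells in normal M-CSF without LPS, at 37.3 against 19 to 81.5 for the other pairings there, and libraries 2 and 4 of WT cells in low M-CSF without LPS, at 17.8 against 14.7 to 35.7. If these are repeats of 1 sample, each group holds 2 samples, so every call was tested again with those libraries summed in pairs.

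**Figure D1:**
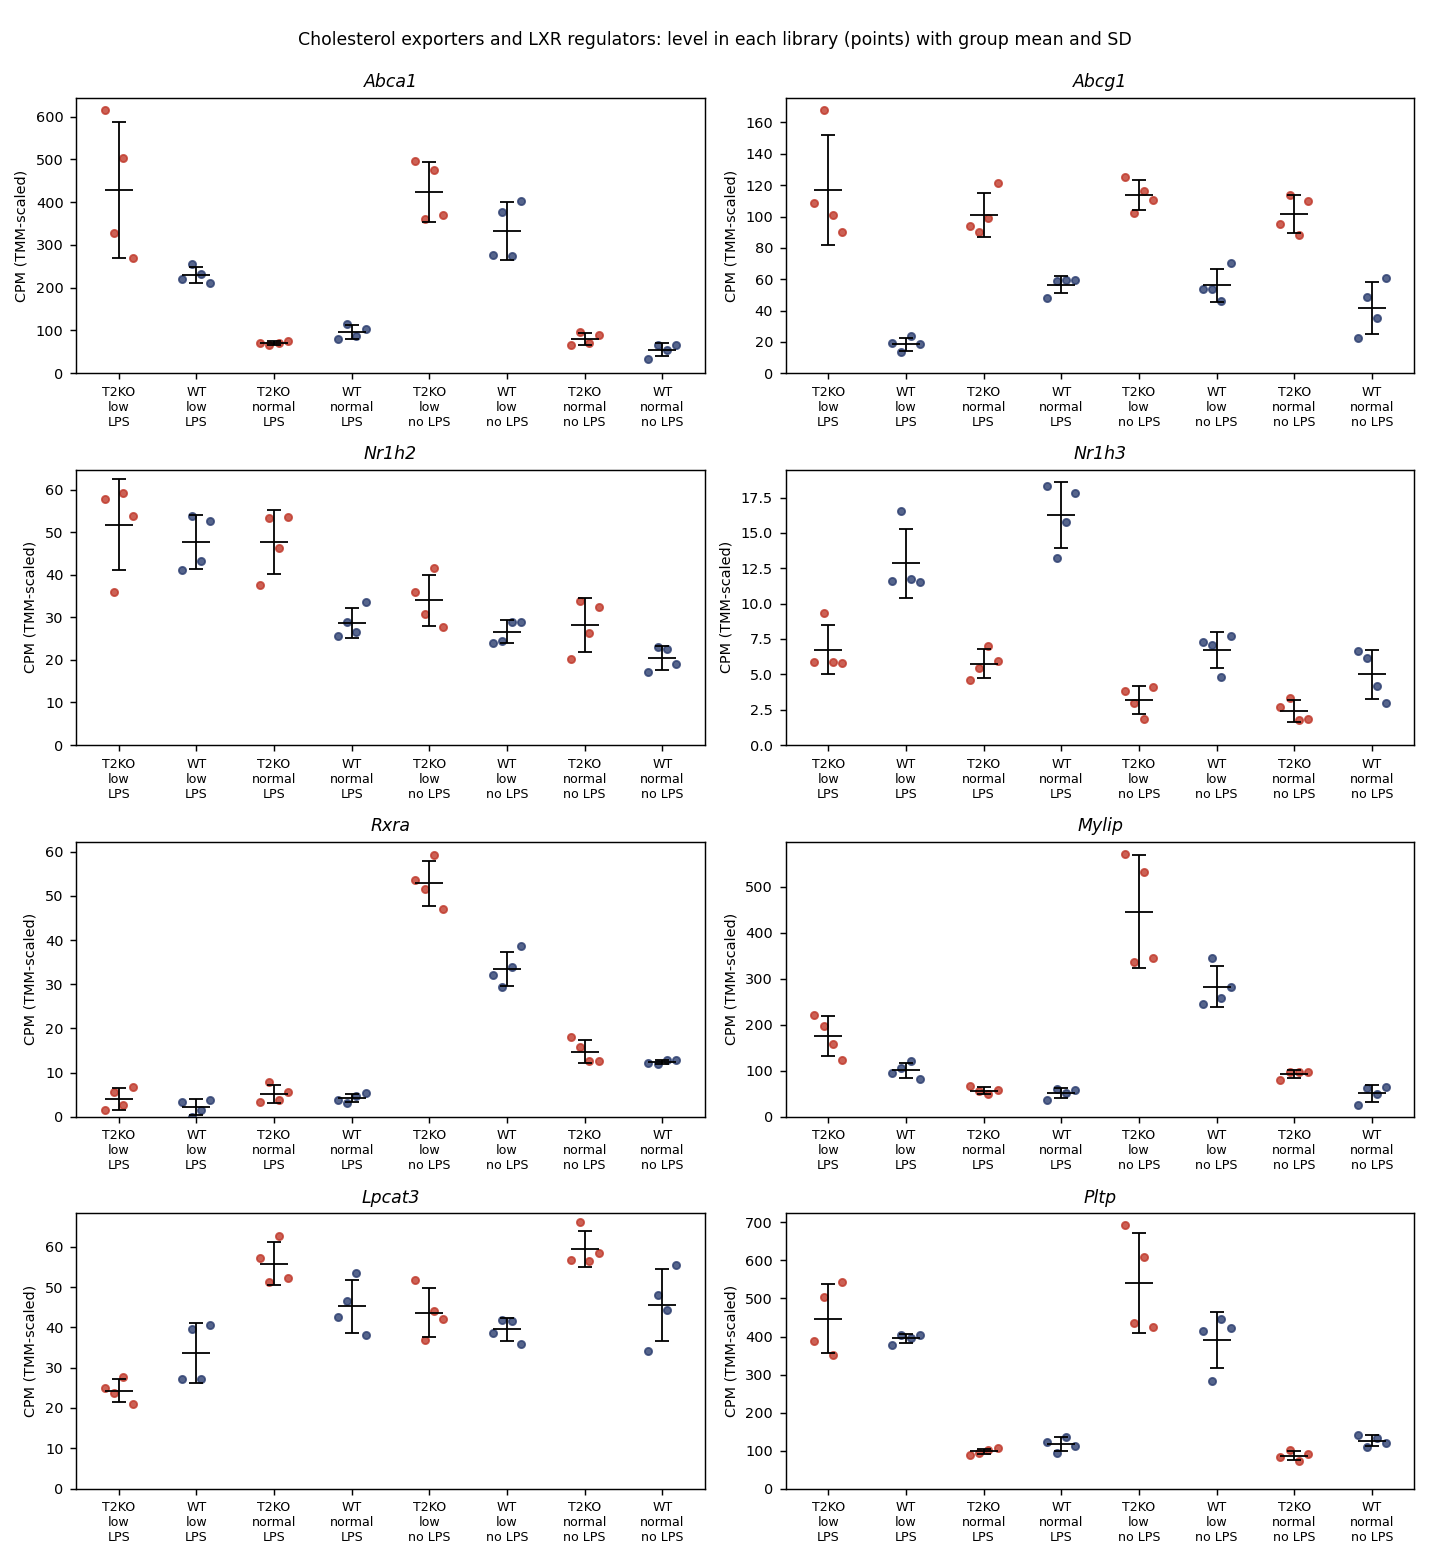
CPM of the 8 genes in each of the 32 libraries, on a linear scale, by group, with T2KO left of WT. Points are libraries, and bars are group means with SD. Abca1, Mylip and Pltp stand high in the low M-CSF groups, Abcg1 splits by genotype, and Rxra lies at the bottom in the LPS groups.

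Abcg1 was higher in T2KO than in WT macrophages in all 4 conditions, and the gap was widest in low M-CSF with LPS. There the 4 libraries held 108, 168, 101 and 90.3 CPM in T2KO cells, against 19.2, 13.2, 23.4 and 18.4 CPM in WT cells. Every T2KO library was above every WT library, and the means of 117 ± 34.8 and 18.6 ± 4.19 CPM (SD, n = 4 in this and every group below) differed 6.29-fold. In the edgeR fit this was a log2 fold change of 2.65 ± 0.24 (SE) at an adjusted p of 3.33e-10. Every adjusted p below comes from this fit by the Benjamini-Hochberg method over the 11244 genes, and 0.05 was the threshold. In normal M-CSF with LPS the libraries held 93.9, 90.0, 99 and 121 CPM in T2KO and 48.1, 58.8, 59.2 and 59.6 CPM in WT cells, again without overlap (log2 0.84 ± 0.21, adjusted p = 0.0149). Without LPS, low M-CSF gave 125, 102, 116 and 110.5 CPM in T2KO and 54, 53.7, 45.8 and 70.5 CPM in WT cells (log2 1.02 ± 0.21, adjusted p = 0.000538). Normal M-CSF without LPS gave 95, 114, 88.2 and 109.7 CPM in T2KO and 22.2, 48.4, 35.5 and 60.9 CPM in WT cells (log2 1.29 ± 0.21, adjusted p = 0.000155). The 4 T2KO groups thus all ranked above the 4 WT groups, with means of 101 to 117 CPM in T2KO cells, where neighbouring groups overlapped, and 18.6 to 56.5 CPM in WT cells.

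In WT cells Abcg1 also depended on the culture. It fell to 18.6 ± 4.19 CPM in low M-CSF with LPS, against 56 ± 10.4 CPM in low M-CSF without LPS (log2 -1.59 ± 0.23, adjusted p = 3.31e-07) and against 56.5 ± 5.55 CPM in normal M-CSF with LPS (log2 -1.60 ± 0.23, adjusted p = 9.85e-07). The same steps in T2KO cells gave log2 changes of 0.043 and 0.21, with adjusted p of 0.865 and 0.402. Tests of the difference itself passed. The LPS response in low M-CSF differed between T2KO and WT cells by 1.63 ± 0.31 on the log2 scale (adjusted p = 0.000607). The genotype gap with LPS differed between low and normal M-CSF by 1.81 ± 0.32 (adjusted p = 0.00102). The LPS response of WT cells itself differed between low and normal M-CSF by -2.03 ± 0.32 (adjusted p = 1.18e-05). With libraries summed in pairs, the first 2 interactions and the genotype call in normal M-CSF with LPS missed the threshold (adjusted p = 0.058, 0.117 and 0.27). That genotype call was also lost without T2KO library 4 or WT library 1 (adjusted p = 0.0742 and 0.0674). Without WT library 4 in normal M-CSF without LPS, Abcg1 passed for low over normal M-CSF (log2 0.69, adjusted p = 0.00994) and for LPS in normal M-CSF (log2 0.65, adjusted p = 0.0181) in WT cells.

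Abca1 followed the medium. Without LPS, libraries of T2KO cells held 495, 359, 474 and 369.8 CPM in low M-CSF, against 65.3, 95.3, 71.4 and 90.2 CPM in normal M-CSF. WT libraries without LPS held 276, 377, 274 and 403 CPM in low M-CSF, against 34.2, 66.5, 53.2 and 66.8 CPM in normal M-CSF. The groups did not overlap, and low M-CSF raised Abca1 5.27-fold in T2KO cells (log2 2.40 ± 0.22, adjusted p = 1.75e-11) and 6.03-fold in WT cells (log2 2.59 ± 0.22, adjusted p = 7.93e-12). With LPS the rise was 6.07-fold in T2KO cells (log2 2.60 ± 0.22, adjusted p = 3.91e-12) and 2.38-fold in WT cells (log2 1.25 ± 0.21, adjusted p = 1.16e-05).

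With LPS the Abca1 libraries in low M-CSF read 615, 328, 504 and 268 CPM in T2KO cells and 220.3, 255, 231 and 210.1 CPM in WT cells. Those in normal M-CSF read 71.4, 65.3, 69.5 and 76.4 CPM in T2KO and 79.5, 114, 87.6 and 104 CPM in WT cells. T2KO libraries were above all WT libraries in low M-CSF (log2 0.91 ± 0.21, adjusted p = 0.00247) and below all of them in normal M-CSF, where the gap did not pass (log2 -0.45 ± 0.21, adjusted p = 0.281). In the low M-CSF T2KO group, libraries 1 and 3 held more than libraries 2 and 4. The genotype gap with LPS differed between low and normal M-CSF by 1.35 ± 0.30 on the log2 scale (adjusted p = 0.00644). LPS moved Abca1 in WT cells in opposite directions by medium. In low M-CSF it fell to 229 ± 19.1 CPM with LPS, against 333 ± 67.2 CPM without (log2 -0.54 ± 0.21, adjusted p = 0.0262). In normal M-CSF it rose to 96.5 ± 15.8 CPM, against 55.2 ± 15.4 CPM (log2 0.81 ± 0.21, adjusted p = 0.00245). These responses differed from each other by -1.34 ± 0.30 (adjusted p = 0.001). In T2KO cells LPS gave 0.016 in low and -0.19 in normal M-CSF, and neither passed (adjusted p = 0.949 and 0.509). In the order of the 8 group means, the only neighbours without overlap were WT cells in low M-CSF without LPS and with LPS, and WT cells in low M-CSF with LPS and WT cells in normal M-CSF with LPS. Summing the libraries in pairs ended all of these calls on genotype, LPS and interactions (adjusted p = 0.106 for genotype, 0.194 and 0.0688 for LPS, 0.288 and 0.0734 for the interactions) and none of those on the medium. The fall with LPS was lost without WT library 4 with LPS (adjusted p = 0.0536) or WT library 2 or 4 without it (adjusted p = 0.0701 and 0.0651).

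Of the receptors, Nr1h3 was lower in T2KO than in WT cells in every condition. Its libraries held 4.59, 5.44, 7.02 and 5.98 CPM in T2KO and 18.4, 13.2, 15.8 and 17.8 CPM in WT cells in normal M-CSF with LPS. This gap was the widest of the 4 (log2 -1.48 ± 0.27, adjusted p = 0.000725). In low M-CSF with LPS they held 5.87, 9.33, 5.89 and 5.83 CPM in T2KO and 11.6, 16.5, 11.7 and 11.6 CPM in WT cells (log2 -0.93 ± 0.30, adjusted p = 0.0267). The groups did not overlap with LPS in either medium, and library 2 was the highest of both low M-CSF groups. Without LPS, low M-CSF gave 3.8, 2.98, 1.83 and 4.07 CPM in T2KO and 7.27, 7.04, 4.82 and 7.72 CPM in WT cells (log2 -1.08 ± 0.28, adjusted p = 0.00579). Normal M-CSF without LPS gave 2.69, 3.34, 1.74 and 1.86 CPM in T2KO and 6.68, 6.14, 4.21 and 2.95 CPM in WT cells, which overlapped (log2 -1.09 ± 0.29, adjusted p = 0.0369).

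On the TMM scale, LPS raised Nr1h3 in all 4 settings (adjusted p from 2.44e-06 to 0.0047). The log2 changes were 1.08 in T2KO and 0.93 in WT cells in low M-CSF, and 1.29 in T2KO and 1.68 in WT cells in normal M-CSF. The medium gave -0.34 to 0.41, and none of these 4 changes passed (adjusted p from 0.23 to 0.566). In the order of the 8 group means, the WT groups with LPS stood apart above the rest, and all other neighbours overlapped. No interaction passed for Nr1h3, with the smallest adjusted p, 0.161, for the LPS response of WT cells in low against normal M-CSF. Counts of Nr1h3 were low, and 2 of its genotype calls were fragile. In normal M-CSF without LPS the call was lost with pairs summed (adjusted p = 0.215), without the filter on low counts (0.0716), with the compared groups fitted alone (0.154), and without T2KO library 1, 3 or 4 or WT library 1 or 2 (0.0686 to 0.176). In low M-CSF with LPS it was lost with pairs summed (adjusted p = 0.124), without the filter (0.0576), with the groups alone (0.0761), and without T2KO library 1, 3 or 4 or WT library 2 (0.0558 to 0.0991).

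On the TMM scale, whose factors were lower with LPS than without, Nr1h2 was raised by LPS in all 4 settings. The rise in T2KO cells in low M-CSF rests on that scaling. Counts of Nr1h2 there were 187, 108, 231 and 111 with LPS, of totals of 5419465, 4889484, 6248835 and 3068863. They were 237, 423, 452 and 511 without LPS, of totals of 5333519, 11758309, 8776749 and 15585423. Nr1h2 varied less than the other receptors, 2.53-fold between the highest and the lowest group mean. In normal M-CSF it averaged 47.7 ± 7.53 CPM with LPS and 28.2 ± 6.26 CPM without in T2KO cells (log2 0.76 ± 0.18, adjusted p = 0.00081), and 28.7 ± 3.57 and 20.4 ± 2.77 CPM in WT cells (log2 0.48 ± 0.18, adjusted p = 0.0381). In low M-CSF it averaged 51.7 ± 10.7 CPM with LPS and 34 ± 6.04 CPM without in T2KO cells (log2 0.61 ± 0.18, adjusted p = 0.00395), where the groups overlapped, and 47.7 ± 6.44 and 26.6 ± 2.7 CPM in WT cells (log2 0.84 ± 0.19, adjusted p = 0.000215). Genotype passed for Nr1h2 in normal M-CSF with LPS, at 37.6, 53.4, 46.4 and 53.5 CPM in T2KO and 25.6, 28.9, 26.6 and 33.6 CPM in WT libraries, without overlap (log2 0.74 ± 0.18, adjusted p = 0.0139). Low M-CSF raised it in WT cells with LPS on the TMM scale, whose factors with LPS were lower in low than in normal M-CSF (log2 0.74 ± 0.19, adjusted p = 0.00161). Neighbours in the order of group means overlapped, except WT cells in low and in normal M-CSF without LPS, the lowest of the 8. The genotype call was lost with pairs summed (adjusted p = 0.319) and without T2KO library 2 or 4 or WT library 1 or 2 (0.0518 to 0.0597). Pair sums also ended the LPS calls in T2KO cells in low M-CSF (0.0599) and in WT cells in normal M-CSF (0.268). The last of these was also lost with RLE factors (0.0746), DESeq2 (0.0623), no filter (0.0852), and without WT library 2 or 4 with LPS or 1 or 4 without LPS (0.0629 to 0.135).

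Rxra fell with LPS in every setting and had the widest range of the 8 genes, 24.1-fold between the highest and the lowest group mean. T2KO libraries in low M-CSF held 1.54, 5.66, 2.56 and 6.8 CPM with LPS, against 53.6, 51.6, 59.3 and 47 CPM without. WT libraries in low M-CSF held 3.31, 0, 1.62 and 3.85 CPM with LPS, among them 1 library with no count, for which 3 counts would allow up to 1.24 CPM, against 32, 29.5, 33.9 and 38.6 CPM without. All LPS libraries lay far below, with log2 changes of -3.76 ± 0.33 in T2KO cells (adjusted p = 1.91e-12) and -3.90 ± 0.37 in WT cells (adjusted p = 1.48e-11). In normal M-CSF the fall was smaller. T2KO cells averaged 5.17 ± 2.08 CPM with LPS and 14.8 ± 2.69 CPM without (log2 -1.54 ± 0.30, adjusted p = 5.59e-05), and WT cells 4.28 ± 0.969 and 12.4 ± 0.436 CPM (log2 -1.57 ± 0.30, adjusted p = 4.42e-05). The LPS response differed between low and normal M-CSF by -2.22 ± 0.45 in T2KO cells (adjusted p = 0.000252) and by -2.32 ± 0.49 in WT cells (adjusted p = 0.000614).

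Without LPS, low M-CSF raised Rxra 3.58-fold over normal M-CSF in T2KO cells (log2 1.84 ± 0.27, adjusted p = 4.53e-07) and 2.69-fold in WT cells (log2 1.43 ± 0.27, adjusted p = 3.89e-05). With LPS the log2 changes by medium were -0.38 in T2KO and -0.90 in WT cells and did not pass (adjusted p = 0.387 and 0.0806). The WT change passed without WT library 4 in low M-CSF (log2 -1.24, adjusted p = 0.0335). In the order of the 8 group means, neighbours overlapped among the 4 groups with LPS and between T2KO and WT cells in normal M-CSF without LPS, and the other neighbours were apart. In low M-CSF without LPS every T2KO library was above every WT library, and the gap missed the threshold (log2 0.66 ± 0.26, adjusted p = 0.0727). It passed with DESeq2 (log2 0.62, adjusted p = 0.0143) and with the 2 groups fitted alone (log2 0.59, adjusted p = 0.0201).

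Mylip was raised by low M-CSF in all 4 settings and lowered by LPS in 3 of them. T2KO libraries without LPS held 571, 336, 532 and 344 CPM in low M-CSF, against 79.8, 96.7, 98.3 and 97.7 CPM in normal M-CSF (log2 2.26 ± 0.23, adjusted p = 1.56e-10). WT libraries without LPS held 244, 346, 259 and 281 CPM in low M-CSF, against 26.3, 63, 49.5 and 64.4 CPM in normal M-CSF (log2 2.48 ± 0.23, adjusted p = 5.51e-11). With LPS, T2KO libraries held 221, 197, 159 and 123 CPM in low and 66.6, 55.1, 48.9 and 57.6 CPM in normal M-CSF (log2 1.62 ± 0.23, adjusted p = 1.53e-07). WT libraries with LPS held 94.4, 107, 120.4 and 82.6 CPM in low and 37.2, 60.2, 51.4 and 57.6 CPM in normal M-CSF (log2 0.97 ± 0.22, adjusted p = 0.000573). None of these 4 pairs of groups overlapped. LPS lowered Mylip in low M-CSF by 1.35 on the log2 scale in T2KO cells (adjusted p = 1.84e-06) and by 1.48 in WT cells (adjusted p = 5.03e-07). In normal M-CSF it fell by 0.71 in T2KO cells (adjusted p = 0.00903). In WT cells in normal M-CSF the LPS change was 0.022 ± 0.22 (adjusted p = 0.951). The response of WT cells differed between low and normal M-CSF by -1.50 ± 0.31 (adjusted p = 0.000512).

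In 3 of the 4 conditions Mylip was higher in T2KO than in WT cells, by 0.79 ± 0.22 on the log2 scale in low M-CSF with LPS (adjusted p = 0.0105). Without LPS it was higher by 0.66 ± 0.22 in low M-CSF (adjusted p = 0.0314) and 0.88 ± 0.22 in normal M-CSF (adjusted p = 0.0226). The libraries overlapped between genotypes in low M-CSF without LPS and did not in the other 2. In the order of the 8 group means, the 3 highest were T2KO and WT cells in low M-CSF without LPS, which overlapped, and T2KO cells in low M-CSF with LPS, apart from its neighbours on both sides. In normal M-CSF with LPS the change was 0.15 ± 0.22 and did not pass (adjusted p = 0.818). With pairs summed all 3 genotype calls were lost (adjusted p = 0.121, 0.256 and 0.474), as was the LPS call in T2KO cells in normal M-CSF (0.0727). Single libraries ended them too: T2KO library 1 in low M-CSF with LPS (adjusted p = 0.052), T2KO library 1 or 3 or WT library 1, 3 or 4 in low M-CSF without LPS (0.0593 to 0.139), and T2KO library 2, 3 or 4 or WT library 1 or 3 in normal M-CSF without LPS (0.0612 to 0.123). With the compared groups fitted alone, the 2 calls without LPS were lost as well (0.0694 in low and 0.0981 in normal M-CSF).

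Pltp was raised by low M-CSF in all 4 settings, and no comparison by genotype or by LPS alone passed in the edgeR fit. T2KO libraries held 693, 437, 609 and 425 CPM in low M-CSF and 82.2, 101, 73.2 and 90.5 CPM in normal M-CSF without LPS, 6.24-fold higher (log2 2.64 ± 0.18, adjusted p = 1.26e-14). WT libraries held 414, 284, 447 and 423 CPM in low and 140.5, 109, 133 and 121 CPM in normal M-CSF without LPS, 3.11-fold higher (log2 1.64 ± 0.18, adjusted p = 1.63e-09). With LPS, means were 447 ± 90.9 CPM in low and 97.9 ± 7.51 CPM in normal M-CSF in T2KO cells (log2 2.19 ± 0.18, adjusted p = 1.47e-12). They were 395 ± 11.9 CPM in low and 117 ± 18.1 CPM in normal M-CSF in WT cells (log2 1.76 ± 0.18, adjusted p = 6.29e-10). All low M-CSF libraries of Pltp, from 284 to 693 CPM, were above all normal M-CSF libraries, from 73.2 to 140.5 CPM, and within each of these sets of 4 groups neighbours in the order of means overlapped. The rise without LPS was larger in T2KO than in WT cells by 1.01 ± 0.24 on the log2 scale (adjusted p = 0.00904). The genotype gaps behind it ran in opposite directions, and in normal M-CSF all T2KO libraries lay below all WT libraries. The log2 changes were 0.46 ± 0.17 in low and -0.54 ± 0.17 in normal M-CSF, which did not pass (adjusted p = 0.0563 and 0.11). The interaction was lost with pairs summed (adjusted p = 0.46). The gap in low M-CSF passed without T2KO library 2 or 4 or WT library 3 (log2 0.54 to 0.57, adjusted p = 0.028 to 0.0483). The gap in normal M-CSF passed with DESeq2 (log2 -0.55, adjusted p = 0.0438). LPS gave log2 changes of -0.28 to 0.18 in the 4 settings and none passed (adjusted p from 0.151 to 0.96). The change in T2KO cells in low M-CSF passed without T2KO library 2 or 4 of the cells without LPS (log2 -0.41 and -0.42, adjusted p = 0.046 and 0.0409).

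Lpcat3 was lower in low than in normal M-CSF in 3 of 4 settings. T2KO libraries with LPS held 25, 23.7, 27.7 and 20.9 CPM in low M-CSF, against 57.2, 51.2, 62.6 and 52.1 CPM in normal M-CSF, without overlap (log2 -1.19 ± 0.17, adjusted p = 3.82e-07). T2KO libraries without LPS held 51.7, 36.8, 44 and 42.2 CPM in low and 56.8, 66, 56.4 and 58.4 CPM in normal M-CSF (log2 -0.45 ± 0.16, adjusted p = 0.0219). WT libraries with LPS held 27.2, 39.7, 27.1 and 40.6 CPM in low and 42.5, 46.5, 53.6 and 38.1 CPM in normal M-CSF and overlapped (log2 -0.43 ± 0.17, adjusted p = 0.0385). Without LPS the WT change was -0.20 ± 0.16 (adjusted p = 0.332). LPS lowered Lpcat3 in T2KO cells in low M-CSF (log2 -0.83 ± 0.17, adjusted p = 6.99e-05), and this response differed from that in normal M-CSF by -0.75 ± 0.24 (adjusted p = 0.0138). WT means of Lpcat3 without LPS were 39.5 ± 2.87 CPM in low and 45.5 ± 8.91 CPM in normal M-CSF. No genotype comparison passed for Lpcat3 (adjusted p from 0.0713 to 0.6). Its span was 2.44-fold between the highest and the lowest group mean, and each group overlapped the next in order.

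Several of these Lpcat3 calls were fragile. The medium call in T2KO cells without LPS was lost with pairs summed (adjusted p = 0.182), with no filter (0.0821), and without T2KO library 2, 3 or 4 in low or 2 or 4 in normal M-CSF (0.0508 to 0.121). That in WT cells with LPS was lost with RLE factors (0.116), DESeq2 (0.0995), no filter (0.083), the groups alone (0.0927), pairs summed (0.25), and without WT library 1 or 3 in low or 2 or 3 in normal M-CSF (0.0669 to 0.142). The interaction in T2KO cells was lost with RLE factors (0.0567) and with pairs summed (0.181). Without WT library 1 or 3 in low M-CSF, Lpcat3 passed as lower in T2KO cells in low M-CSF with LPS (log2 -0.54 in both, adjusted p = 0.0445 and 0.0419). Without either of them or WT library 3 in normal M-CSF, the genotype gap with LPS passed as differing by medium (log2 -0.83 to -0.85, adjusted p = 0.0388 to 0.0457).

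Set out by genotype, T2KO over WT, the 8 genes gave 13 calls in 4 conditions, 9 of them higher and 4 lower. With libraries summed in pairs 8 of the 13 were lost and 5 remained: Abcg1 in 3 conditions and Nr1h3 in 2. In low M-CSF without LPS, 3 of 8 members were called, against 16.7% of all genes tested. In normal M-CSF without LPS, 3 of 8 were called, against 1.86% of all genes. With LPS, 4 were called in low M-CSF, against 19.1%, and 3 in normal M-CSF, against 4.04%. Leaving out 1 library gave 2 to 4 and 1 to 3 members called in low and normal M-CSF without LPS, and 2 to 5 and 1 to 3 with LPS, as set out gene by gene above. With pairs summed 1 member remained called in normal M-CSF without LPS and in each medium with LPS, and with the compared groups fitted alone 1 in normal M-CSF without LPS. Abcg1 and Nr1h3 were called in every condition, in opposite directions, so the exporter was higher and the LXR alpha transcript lower in the same libraries. The median log2 change of the 8 members was 0.41 in low and 0.42 in normal M-CSF without LPS, beside 0.069 and -0.0078 over all genes. It was 0.49 in low and 0.21 in normal M-CSF with LPS, beside -0.049 and 0.0014. Summed neutrophil markers in low M-CSF without LPS were 148 to 216 CPM in T2KO and 58.1 to 97.1 CPM in WT libraries, and their part in the genotype results in low M-CSF was not tested.

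**Figure D2:**
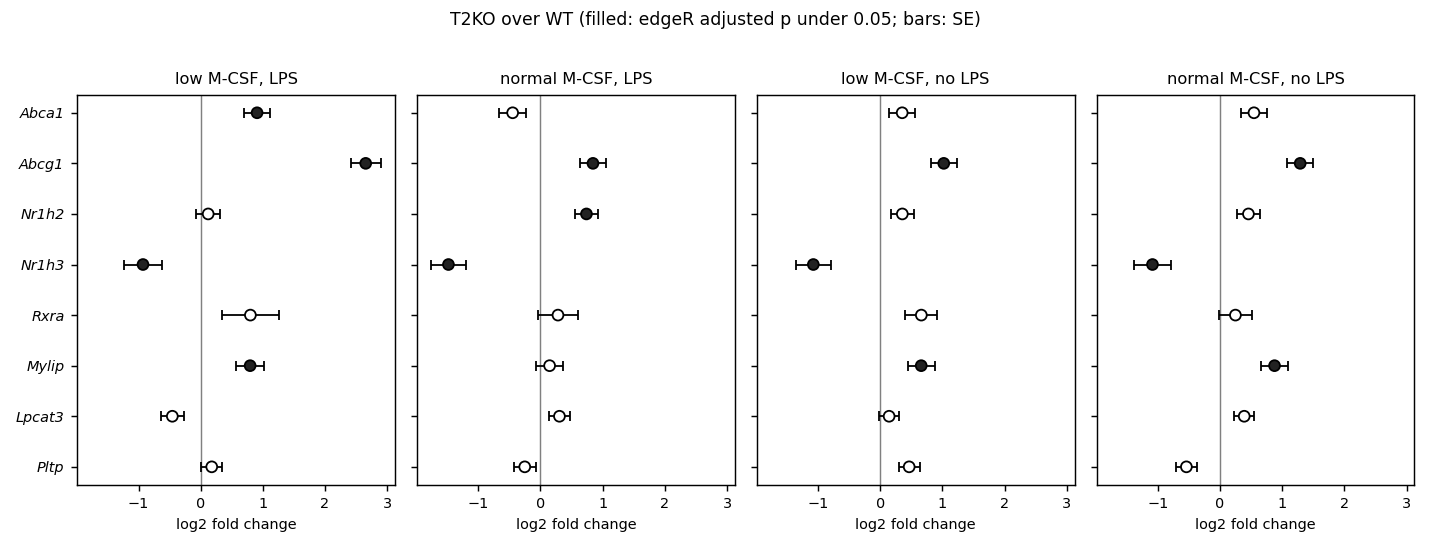
Log2 fold change of T2KO over WT cells for the 8 genes in the 4 conditions, with SE bars; filled points passed at an edgeR adjusted p under 0.05. Abcg1 lies right of 0 and Nr1h3 left of 0 in all 4 panels, and the Abcg1 point in low M-CSF with LPS, at 2.65, lies farthest out.

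By medium, low over normal M-CSF, Abca1, Mylip and Pltp rose in T2KO and WT cells with and without LPS, by log2 changes of 0.97 to 2.64. TMM factors with LPS were lower in low than in normal M-CSF, so the sizes of the changes with LPS depend on that scaling. Without LPS, 5 members were called in T2KO cells, against 48.2% of all genes, and 4 in WT cells, against 44.3%. With LPS, 4 members were called in T2KO cells, against 59.2%, and 6 in WT cells, against 45.6%. The shares of members called, 4 to 6 of 8, were below the background in T2KO cells with LPS and above it in the other settings, most so in WT cells with LPS. The background was large, and no result about the members is drawn from these shares. The medians of the log2 changes over all genes were 0.10 and 0.012 in T2KO and WT cells without LPS and -0.14 and -0.10 with LPS. The members' medians were 1.13 and 0.93 without LPS and 0.21 and 0.20 with LPS. Summed neutrophil markers were 148 to 216 CPM in low and 52.9 to 60.4 CPM in normal M-CSF in T2KO cells without LPS, summed macrophage markers 7650.4 to 9847 and 4386 to 5362 CPM, and the part of either in these results was not tested.

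**Figure D3:**
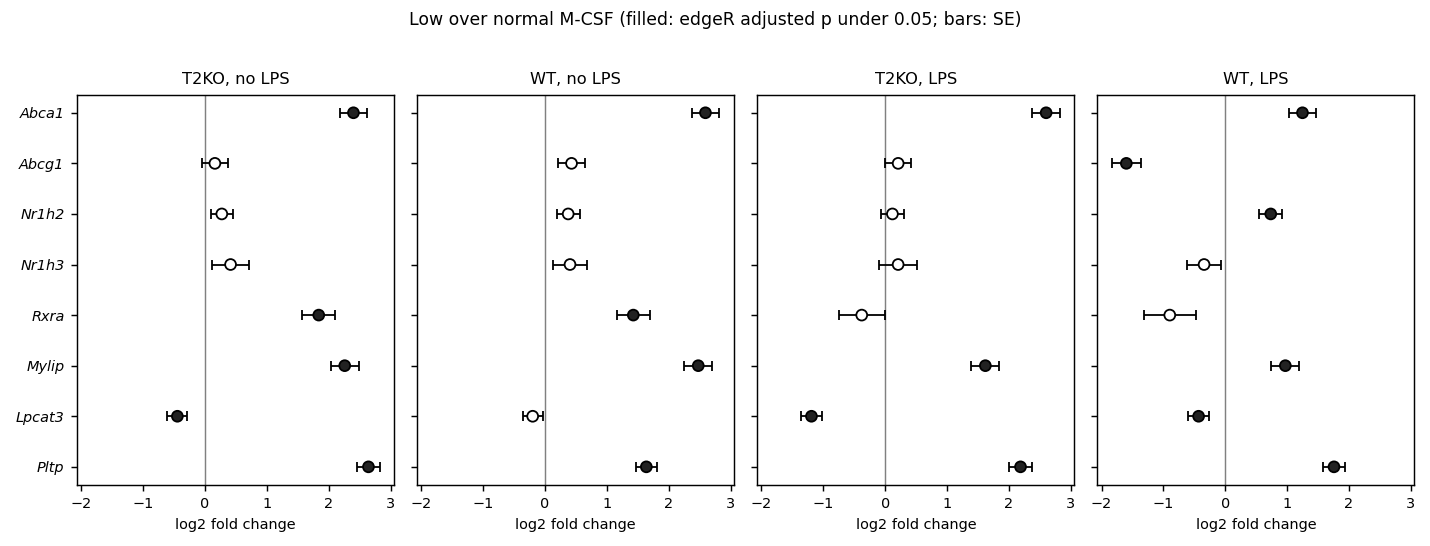
Log2 fold change of low over normal M-CSF for the 8 genes in T2KO and WT cells without and with LPS, with SE bars; filled points passed at an edgeR adjusted p under 0.05. Abca1, Mylip and Pltp lie right of 0 in all 4 panels, and Abcg1 falls to -1.60 in WT cells with LPS.

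By LPS, with over without, Rxra fell and Nr1h2 and Nr1h3 rose in both genotypes and both media on the TMM scale. The genes of the LXRs and of their partner receptor thus moved in opposite directions on that scale, whose factors were lower with LPS. The rise of Nr1h2 in T2KO cells in low M-CSF rests on that scaling. In low M-CSF, 5 members were called in T2KO cells, against 67.5% of all genes, and 6 in WT cells, against 60.7%. In normal M-CSF, 4 members were called in T2KO cells, against 42.7%, and 4 in WT cells, against 36.1%. These shares were below the background in T2KO cells in low M-CSF and above it in the other settings. The background was itself large, and no result about the members is drawn from them. Medians over all genes were -0.36 in T2KO and -0.18 in WT cells in low M-CSF, beside -0.13 and -0.39 over the members, and -0.053 and -0.04 in normal M-CSF, beside -0.048 and 0.23. Summed neutrophil markers in low M-CSF were 226 to 383 CPM with LPS and 148 to 216 CPM without in T2KO cells, and 177 to 204 and 58.1 to 97.1 CPM in WT cells, and their part in the LPS results was not tested.

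**Figure D4:**
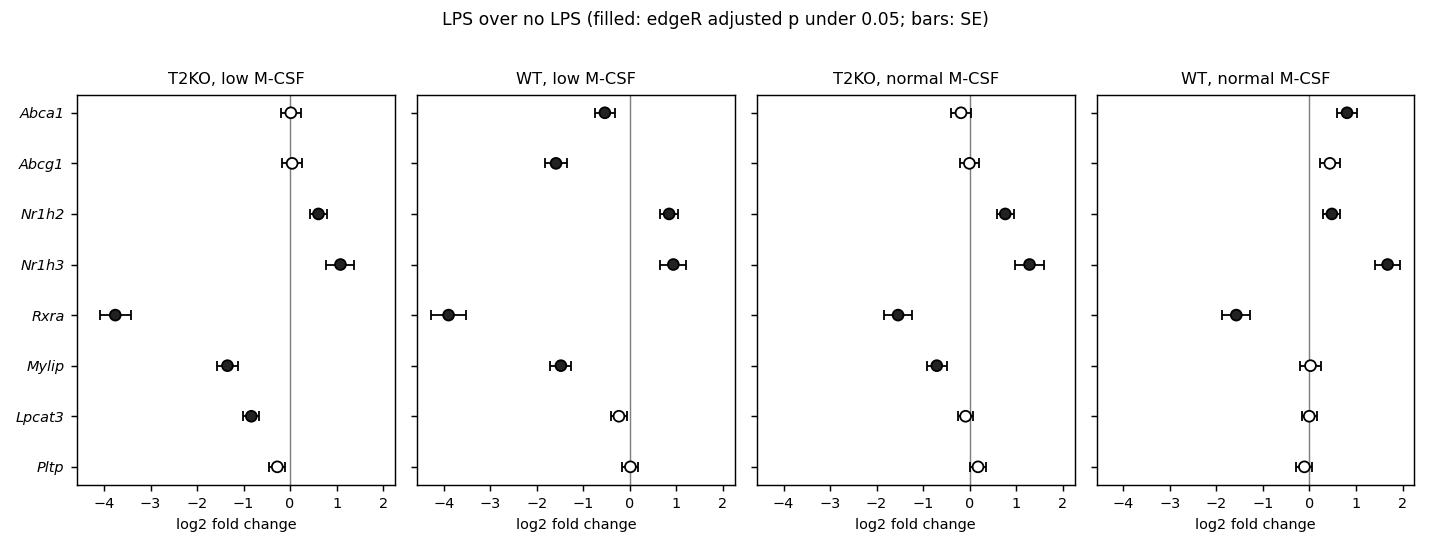
Log2 fold change of cells with over cells without LPS for the 8 genes in T2KO and WT cells in low and normal M-CSF, with SE bars; filled points passed at an edgeR adjusted p under 0.05. Rxra lies near -3.76 and -3.90 in low M-CSF and near -1.54 and -1.57 in normal M-CSF, and Nr1h3 lies right of 0 in every panel.

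Tests of whether one factor's effect varied with another gave 10 calls among 48. With libraries summed in pairs 6 of the 10 were lost and 4 remained: Rxra in T2KO cells and Abcg1, Rxra and Mylip in WT cells, all for the LPS response by medium. The genotype gap differed by medium for 1 member without LPS (Pltp), against 4.62% of all genes, and for 2 with LPS (Abca1 and Abcg1), against 5.49%. It differed by LPS for 1 member in low M-CSF (Abcg1), against 16%, and for 0 in normal M-CSF, against 0.534%. In that last edgeR test 2 members had an unadjusted p under 0.05, Abca1 (0.00207) and Mylip (0.025), and DESeq2 called 0 as well. The LPS response differed by medium for 2 members in T2KO cells (Rxra and Lpcat3), against 35.3%, and for 4 in WT cells (Abca1, Abcg1, Rxra and Mylip), against 23.6%. All 6 of these were negative, that is, the LPS change was lower in low than in normal M-CSF, beside medians over all genes of -0.28 in T2KO and -0.14 in WT cells.

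Other genes of the circuit were counted in 7 lists. For comparison, the shares of all genes that passed as higher and as lower were 26.6% and 21.7% by medium in T2KO and 22.4% and 21.9% in WT cells without LPS, and 26.5% and 32.8% in T2KO and 21.4% and 24.2% in WT cells with LPS. By LPS they were 26.5% and 41% in T2KO and 27% and 33.6% in WT cells in low M-CSF, and 20.9% and 21.8% in T2KO and 18.3% and 17.9% in WT cells in normal M-CSF. By genotype they were 7.74% and 8.97% in low and 0.747% and 1.11% in normal M-CSF without LPS, and 8.2% and 10.9% in low and 1.98% and 2.05% in normal M-CSF with LPS. Of 16 other LXR targets, 13 were tested. In low over normal M-CSF without LPS, 7 higher and 5 lower passed in T2KO cells and 6 higher and 5 lower in WT cells, with list medians of 1.48 and 1.22. Apoe, the apolipoprotein that macrophages secrete to carry cholesterol, rose to 10392 ± 682 CPM in low M-CSF, against 507 ± 35 CPM in normal M-CSF, in T2KO cells (log2 4.36, adjusted p = 4.22e-22). In WT cells it rose to 3747 ± 615 CPM, against 447 ± 53.3 CPM (log2 3.07, adjusted p = 2.51e-18). Apoc1, its neighbour in the same apolipoprotein cluster, rose to 13.3 ± 3.78 CPM in low M-CSF, against 0.271 ± 0.258 CPM in normal M-CSF, in T2KO cells (adjusted p = 1.25e-09). It rose to 4.19 ± 0.759 CPM, against 0.39 ± 0.282 CPM, in WT cells (adjusted p = 5.5e-06). Normal M-CSF libraries hold so few counts of Apoc1 that no fold is given. Scd2, a fatty acid desaturase, fell by 4.53 in T2KO and 3.12 in WT cells (adjusted p = 1.59e-17 and 1.38e-13). Between genotypes in low M-CSF, 3 higher and 2 lower passed without LPS, among them Apoe (log2 1.47, adjusted p = 5.68e-10), Apoc1 (log2 1.66, adjusted p = 0.00796) and the lipoprotein lipase Lpl (log2 -2.54, adjusted p = 6.75e-14). With LPS in low M-CSF, 3 higher and 3 lower passed, led by Arl4c, a small GTPase (log2 1.33, adjusted p = 0.000903), Scd2 (log2 -1.24, adjusted p = 0.0164) and the receptor for dying cells Mertk (log2 1.20, adjusted p = 0.0494). In normal M-CSF the genotype counts were 0 higher and 2 lower without LPS, with Cd5l, a secreted macrophage protein (log2 -1.26, adjusted p = 0.0281), and Lpl (log2 -1.04, adjusted p = 4.87e-05). They were 0 higher and 1 lower with LPS, again Lpl (log2 -0.81, adjusted p = 0.00145).

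LPS in low M-CSF gave 2 higher and 7 lower of these 13 targets in T2KO and 2 higher and 4 lower in WT cells, and in normal M-CSF 2 higher and 3 lower in T2KO and 1 higher and 3 lower in WT cells. Arl4c fell in both media, by log2 changes of -4.70 in T2KO and -5.45 in WT cells in low M-CSF and -3.54 and -3.35 in normal M-CSF (adjusted p from 2.69e-19 to 8.41e-15). Ccr7, a chemokine receptor of migrating myeloid cells, rose in low M-CSF to 6.72 ± 6.36 CPM with LPS, against 0.1 ± 0.117 CPM without, in T2KO cells (adjusted p = 3.72e-07). It rose to 3.19 ± 1.38 CPM, against 0.064 ± 0.128 CPM, in WT cells (adjusted p = 4.15e-05), again with too few counts for a fold. With LPS, low over normal M-CSF gave 5 higher and 4 lower in T2KO cells, among them Apoe (log2 4.19, adjusted p = 1.24e-21), and 6 higher and 5 lower in WT cells, led by Apoe (log2 3.33, adjusted p = 9.32e-19).

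Among the retinoid X receptor's relatives and partner receptors, 10 of 14 genes were tested. In low over normal M-CSF without LPS, 9 higher and 0 lower passed in T2KO cells (list median 1.48) and 6 higher and 0 lower in WT cells (1.19), among them the clock repressor Nr1d1 (log2 1.83, adjusted p = 0.00172 in T2KO and 1.31, adjusted p = 0.0264 in WT cells). With LPS the counts by medium were 4 higher and 0 lower in T2KO and 2 higher and 1 lower in WT cells. LPS in low M-CSF gave 1 higher and 9 lower in T2KO cells, against 26.5% and 41% of all genes (median -1.70) and 0 higher and 8 lower in WT cells (-1.48). Among them was Ppard at -3.07, adjusted p = 8.5e-09 in T2KO cells and Pparg at -3.75, adjusted p = 2.33e-09 in WT cells, and both encode receptors for fatty acids. In normal M-CSF LPS gave 1 higher and 5 lower in T2KO and 0 higher and 2 lower in WT cells. Between genotypes, Pparg was lower in T2KO cells in low M-CSF without LPS (log2 -1.70, adjusted p = 0.000121) and in normal M-CSF without LPS (log2 -1.17, adjusted p = 0.0361). The genotype counts were 1 higher and 1 lower in low and 0 higher and 1 lower in normal M-CSF without LPS, and 1 higher and 0 lower in low and 0 higher and 1 lower in normal M-CSF with LPS.

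All 13 coregulators of the LXRs were tested. By medium without LPS 9 higher and 0 lower passed in T2KO and 10 higher and 1 lower in WT cells, and with LPS 8 higher and 1 lower in T2KO and 8 higher and 1 lower in WT cells, with medians of 0.70 to 0.92. Nrip1, the corepressor RIP140, rose in all 4, by 2.79 in T2KO and 1.90 in WT cells with LPS (adjusted p = 1.22e-14 and 2.49e-10), and the acetyltransferase Crebbp rose by 2.19 and 1.44 (adjusted p = 9.54e-09 and 2.5e-05). LPS in low M-CSF gave 3 higher and 6 lower in T2KO and 2 higher and 6 lower in WT cells, with Tbl1xr1, a subunit of the NCoR corepressor complex, at -1.72, adjusted p = 6.58e-08 and -2.66, adjusted p = 5.58e-12. Between genotypes 2 coregulators were lower in T2KO cells in low M-CSF without LPS, Tbl1xr1 (log2 -0.89, adjusted p = 0.00247) and Gps2 (log2 -0.55, adjusted p = 0.0356). The other 2 called were higher in low M-CSF with LPS, Tbl1x (log2 0.66, adjusted p = 0.00462) and Nrip1 (log2 0.65, adjusted p = 0.00813). LPS in normal M-CSF gave 1 higher and 3 lower in T2KO and 2 higher and 4 lower in WT cells.

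Enzymes that make or use LXR ligands were tested in 7 of 10 cases. Ch25h, which makes 25-hydroxycholesterol, rose with LPS to 293 ± 162 CPM, against 4.35 ± 1.37 CPM without, in T2KO cells in low M-CSF (log2 6.04, adjusted p = 7.53e-17). It rose to 153 ± 26.6 CPM, against 3.6 ± 2.01 CPM, in WT cells (log2 5.41, adjusted p = 3.29e-15). In normal M-CSF the LPS rise of Ch25h was 3.42, adjusted p = 1.88e-11 in T2KO and 2.72, adjusted p = 3.54e-09 in WT cells. It was higher in T2KO than in WT cells with LPS in low M-CSF (log2 0.94, adjusted p = 0.0227) and in normal M-CSF (log2 1.60, adjusted p = 0.000739). Without LPS, Ch25h was lower in low than in normal M-CSF in both genotypes, the largest change by medium in the list. Its LPS rise in low M-CSF thus began from a lower level. Cyp27a1, which makes 27-hydroxycholesterol, was the only enzyme of the list to rise in low M-CSF without LPS. The log2 changes were 3.17, adjusted p = 1.06e-12 in T2KO and 2.63, adjusted p = 1.81e-10 in WT cells for Cyp27a1. It was higher in T2KO cells in low M-CSF without LPS (log2 0.70, adjusted p = 0.0345) and with LPS (log2 0.94, adjusted p = 0.0251) and in normal M-CSF with LPS (log2 1.94, adjusted p = 0.000189). By medium the 7 enzymes gave 1 higher and 5 lower in T2KO and 1 higher and 4 lower in WT cells without LPS, and 2 higher and 5 lower and 2 higher and 2 lower with LPS. By LPS they gave 2 higher and 4 lower in T2KO and 2 higher and 4 lower in WT cells in low M-CSF, and 1 higher and 2 lower and 1 higher and 3 lower in normal M-CSF. By genotype they gave 1 higher and 2 lower without and 2 higher and 3 lower with LPS in low M-CSF, and 2 higher and 0 lower with LPS in normal M-CSF.

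Of the other sterol transport and storage genes, 12 of 14 were tested. In low over normal M-CSF without LPS 6 higher and 1 lower passed in T2KO and 6 higher and 0 lower in WT cells. Among them were the transporter gene Abca9 (log2 3.85, adjusted p = 1.07e-16 and 3.68, adjusted p = 1.78e-15), Soat1, which esterifies cholesterol for storage (log2 1.78, adjusted p = 2.12e-08 and 1.45, adjusted p = 1.43e-06), and Npc1, which moves cholesterol out of lysosomes (log2 1.04, adjusted p = 1.78e-05 and 0.86, adjusted p = 0.000284). LPS in low M-CSF gave 1 higher and 9 lower in T2KO and 1 higher and 9 lower in WT cells, against 26.5% and 41% of all genes in T2KO and 27% and 33.6% in WT cells, with medians of -1.10 and -1.21, beside -0.36 and -0.18 over all genes. Nceh1, which frees stored cholesteryl ester, fell by 1.69 in T2KO and 3.22 in WT cells (adjusted p = 6.43e-07 and 1.75e-12). Between genotypes Abca9 was higher in T2KO cells in low M-CSF without LPS (log2 1.10, adjusted p = 5.48e-05) and with LPS (log2 1.05, adjusted p = 0.000595) and in normal M-CSF without LPS (log2 0.93, adjusted p = 0.0157). Nceh1 and Npc1 were higher in low M-CSF with LPS (log2 1.09, adjusted p = 0.00386, and 0.69, adjusted p = 0.00907). The counts by genotype in low M-CSF were 1 higher and 1 lower without and 3 higher and 0 lower with LPS. Those by medium with LPS were 2 higher and 3 lower in T2KO and 2 higher and 2 lower in WT cells, and those by LPS in normal M-CSF were 1 higher and 3 lower in T2KO and 1 higher and 4 lower in WT cells.

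Lipoprotein receptors and their adaptors were tested in 5 of 6 cases. Between genotypes in low M-CSF without LPS, 0 higher and 2 lower passed, among them Lrp1 (log2 -0.54, adjusted p = 0.00433), and with LPS 0 higher and 1 lower passed, Lrp1 (log2 -0.90, adjusted p = 1.93e-05). By medium without LPS 1 higher and 3 lower passed in T2KO and 1 higher and 3 lower in WT cells, with Vldlr higher (log2 3.99, adjusted p = 6.5e-07 and 2.61, adjusted p = 0.000165) and Lrp8 lower (log2 -2.29, adjusted p = 3.79e-08 and -1.48, adjusted p = 6.44e-05). By medium with LPS 0 higher and 2 lower passed in T2KO and 0 higher and 2 lower in WT cells. LPS in normal M-CSF gave 1 higher and 3 lower in T2KO and 1 higher and 3 lower in WT cells. In low M-CSF it gave 1 higher and 4 lower in T2KO and 1 higher and 4 lower in WT cells, with Vldlr lower (log2 -2.14, adjusted p = 0.00124 and -2.07, adjusted p = 0.00527). Of the relatives of Lpcat3 among the lysophospholipid acyltransferases, 7 of 8 were tested. Mboat1 was lower in low M-CSF without LPS (log2 -3.54, adjusted p = 1.57e-12 in T2KO and -1.50, adjusted p = 1.85e-05 in WT cells) and with LPS (log2 -2.69, adjusted p = 1.07e-07 and -2.70, adjusted p = 8.38e-08). It was lower in T2KO than in WT cells in low M-CSF without LPS (log2 -1.85, adjusted p = 1.93e-05), where Lpcat3 did not pass. With LPS, Lpcat2, a phospholipid-remodelling enzyme of inflammatory cells, rose in low M-CSF by 0.71, adjusted p = 0.000366 in T2KO and 1.25, adjusted p = 7.09e-08 in WT cells. Lpgat1, an acyltransferase, fell (log2 -1.46, adjusted p = 6.99e-08 and -1.36, adjusted p = 3.49e-07). Of the 7 acyltransferases, 2 higher and 2 lower passed by medium without LPS in T2KO and 1 higher and 1 lower in WT cells, and 2 higher and 1 lower and 1 higher and 2 lower with LPS. By LPS 1 higher and 1 lower in T2KO and 1 higher and 2 lower in WT cells in low M-CSF and 1 higher and 2 lower and 1 higher and 1 lower in normal M-CSF passed.

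For each member the 3 genes most alike in pattern were taken by Pearson correlation of log2(CPM + 1) over the 32 libraries, which share the same 8 groups and cultures, so a high value mostly says that group means rank alike. Pltp was most like Apoc2 (0.984), an apolipoprotein gene, Apoe (0.958) and Ctla2a (0.948). Abca1 was most like Ddx6 (0.949), Tlr9 (0.949) and Apoe (0.942), and Mylip most like Tmem87b (0.957), Creg1 (0.947) and Nlrc4 (0.945). Rxra was most like Slc17a5 (0.948), Eef2k (0.945) and C5ar2 (0.94). Lpcat3 had Tsn (0.888), Ppp2r5d (0.878) and Lage3 (0.874), Nr1h2 had H2-T24 (0.869), Aoah (0.853) and Ier5 (0.852), and Nr1h3 had Flrt3 (0.856), H2-M3 (0.846) and G530011O06Rik (0.832). For Abcg1 the values were lowest, with Nnt (0.8), A530064D06Rik (0.78) and Wdfy1 (0.755).

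Because they were picked for their likeness to Abcg1, the genotype difference of its nearest genes is given as levels with no test. Nnt, a mitochondrial transhydrogenase gene, averaged 21.9 ± 6.07 CPM in T2KO and 9.33 ± 3.14 CPM in WT cells in low M-CSF with LPS, and 23.6 ± 4.49 and 11.2 ± 1.76 CPM in normal M-CSF with LPS. Without LPS it averaged 39.4 ± 3.74 and 11.7 ± 1.5 CPM in low M-CSF, and 23.1 ± 1.59 and 12.9 ± 2.04 CPM in normal M-CSF. A530064D06Rik averaged 5.97 ± 0.918 CPM in T2KO and 1.48 ± 1.23 CPM in WT cells in low M-CSF with LPS, and 6.28 ± 1.26 and 3.6 ± 0.336 CPM in normal M-CSF without LPS. Wdfy1 averaged 47.4 ± 9.54 and 15.7 ± 8.62 CPM in low M-CSF with LPS, and 69 ± 8.75 and 12.8 ± 0.728 CPM in normal M-CSF without LPS. The genes nearest to Nr1h3, also picked for likeness, all had lower means in T2KO than in WT cells in every condition. Of these, G530011O06Rik averaged 4.26 ± 3.08 CPM in T2KO and 103 ± 16.7 CPM in WT cells in low M-CSF with LPS. Its means were 0.867 ± 0.334 and 26.4 ± 7.79 CPM in normal M-CSF without LPS. Nnt is a gene in which C57BL/6 substrains are known to differ, and the labels give C57BL/6 without a substrain. The loss of Trem2 and a difference in background between the lines cannot be told apart in the genotype comparisons.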

How the data were processed

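RNA was measured by 3'-end RNA sequencing in 32 libraries of mouse bone marrow-derived macrophages. The table holds whole-number counts per Entrez gene, deposited by the authors without normalization. The submitters' processing notes name STAR, HTSeq and DESeq2 and the build mm10, and the strand setting of the counting is not given in the sources used here, so antisense reads cannot be told apart. Groups and library numbers come from the titles. Members and gene lists were chosen with earlier results of these data known. List genes are named as up to 3 with the largest log2 change among those that passed in a comparison, and pattern genes as the 3 with the highest correlation. Some list genes are counted and not reported by name here.

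Counts were filtered with filterByExpr, scaled by TMM and fitted with edgeR 4.0.16 (quasi-likelihood test, R 4.3.3, limma 3.58.1) in 1 model with 8 group means, with Benjamini-Hochberg adjustment over 11244 genes in each of 18 comparisons and a threshold of 0.05. The model was tested on simulated data before use, with every library drawn independently. That test could not show how the model performs where libraries 1 and 3 and libraries 2 and 4 are closer to each other. Standard errors are the log2 fold change divided by the square root of F. Gene names and positions come from RefSeq GRCm38.p6, which matched 23969 of 24885 identifiers. Alternatives were RLE size factors, no filter on low counts, DESeq2 1.42.0, the compared groups fitted alone, a replicate block, libraries 1 and 3 and libraries 2 and 4 summed, and each library left out. Leaving out a library was tried only for the comparisons that hold its group. The interval behind a count of 0 uses 3 counts and covers counting error only. No marking of reads by molecular identifiers was taken into account.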

Additional observations from a re-analysis of the deposited data

Results flagged for a closer look

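In 4 of 64 sets of 4 libraries, 1 gene in 1 group, a single library stood apart from the other 3 by Dixon's 95% criterion. Chance alone does this in about 1 in 20 sets. Abcg1 was lowest in library 1 of WT cells in normal M-CSF with LPS, at 48.1 CPM, against 58.8 to 59.6 CPM in the others. Nr1h3 was highest in library 2 of T2KO cells in low M-CSF with LPS, at 9.33 CPM, against 5.83 to 5.89 CPM, and highest in library 2 of WT cells in low M-CSF with LPS, at 16.5 CPM, against 11.6 to 11.7 CPM. Mylip was lowest in library 1 of T2KO cells in normal M-CSF without LPS, at 79.8 CPM, against 96.7 to 98.3 CPM.

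In 10 of 48 edgeR interaction tests the effect of one factor differed between groups at an adjusted p under 0.05, and 6 of the 10 missed that threshold with libraries summed in pairs. Those 6 are the genotype interactions of Pltp, Abca1 and Abcg1 by medium (adjusted p = 0.46, 0.288 and 0.117) and of Abcg1 by LPS (0.058), and medium by LPS for Lpcat3 in T2KO cells (0.181) and for Abca1 in WT cells (0.0734). The T2KO over WT difference was larger in low than in normal M-CSF by 1.01 on the log2 scale for Pltp without LPS, and by 1.35 for Abca1 and 1.81 for Abcg1 with LPS. The LPS change of Abcg1 in low M-CSF was higher in T2KO than in WT cells by 1.63. The LPS change was lower in low than in normal M-CSF in T2KO cells, with differences of -2.22 for Rxra and -0.75 for Lpcat3. In WT cells this difference was -1.34 for Abca1, -2.03 for Abcg1, -2.32 for Rxra and -1.50 for Mylip.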

How the results depend on the processing

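Of 144 tests on the 8 genes, 61 passed, and 40 of these passed under all 6 other settings and without each library of the compared groups in turn. No value that passed changed sign. The cause of each change below was not tested. With libraries summed in pairs 21 calls were lost, and the number of members called was 1 in T2KO over WT in normal M-CSF without LPS, 1 in low and 1 in normal M-CSF with LPS, 2 for LPS in WT cells in normal M-CSF, 1 for medium by LPS in T2KO cells, and 0 for genotype by medium without and with LPS and for genotype by LPS in low M-CSF. That number was also 1 for genotype in normal M-CSF without LPS with the groups fitted alone, and 1 for medium by LPS in T2KO cells with RLE size factors. Leaving out a library gave 1 to 3 members called for genotype in normal M-CSF without LPS, 2 to 5 in low M-CSF with LPS and 1 to 3 in normal M-CSF with LPS. With RLE factors, the median shift in log2 change over the 8 genes was 0.17 for low over normal M-CSF in T2KO cells with LPS. It was 0.17 as well for medium by LPS in T2KO cells. It was 0.11 for low over normal M-CSF in WT cells with LPS, for LPS in T2KO cells in low M-CSF and for genotype by LPS in low M-CSF.

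Some log2 values that had not passed changed sign. For LPS in T2KO cells in low M-CSF, Abca1 was -0.037 and Abcg1 -0.0096 without the filter, and for LPS in T2KO cells in normal M-CSF Abcg1 was 0.015 with the groups alone and 0.029 with pairs summed. For LPS in WT cells, Pltp in low M-CSF was -0.025 without the filter, and in normal M-CSF Mylip was -0.049 with RLE factors and -0.049 with DESeq2 and Lpcat3 0.026 with pairs summed. Genotype by medium without LPS gave -0.024 with RLE factors, -0.012 with DESeq2 and -0.056 with the groups alone for Nr1h3. Medium by LPS in T2KO cells gave 0.017 with both RLE factors and DESeq2 for Nr1h2. Leaving out each library gave, for LPS in T2KO cells, -0.22 to 0.17 for Abca1 and -0.20 to 0.13 for Abcg1 in low M-CSF and -0.12 to 0.036 for Abcg1 in normal M-CSF. For LPS in WT cells it gave -0.12 to 0.036 for Pltp in low M-CSF, -0.22 to 0.15 for Mylip and -0.15 to 0.081 for Lpcat3 in normal M-CSF. It gave -0.15 to 0.20 for Nr1h3 and -0.35 to 0.0069 for Mylip in genotype by medium without LPS. It gave -0.046 to 0.32 for Nr1h3 and -0.25 to 0.49 for Rxra in genotype by LPS in low M-CSF, and -0.22 to 0.17 for Rxra and -0.19 to 0.033 for Lpcat3 in genotype by LPS in normal M-CSF. In medium by LPS it gave -0.023 to 0.37 for Abca1 and -0.18 to 0.15 for Abcg1 in T2KO cells and -0.0096 to 0.20 for Pltp in WT cells.

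Over all genes, counts that moved by more than 1.5 times are given with the value as reported after them. With DESeq2 they were 359 against 209 in genotype in normal M-CSF without LPS, 693 against 454 in genotype in normal M-CSF with LPS, 962 against 617 in genotype by medium with LPS and 194 against 60 in genotype by LPS in normal M-CSF. With the groups alone they were 1037 against 2147 in genotype in low M-CSF with LPS, 866 against 454 in normal M-CSF with LPS, 959 against 1800 in genotype by LPS in low and 120 against 60 in normal M-CSF, and without the filter 102 against 60 there. With pairs summed, genotype gave 621 against 1879 and 485 against 2147 in low M-CSF without and with LPS, and 39 against 209 and 43 against 454 in normal M-CSF. For medium it gave 3539 against 5422 in T2KO and 2969 against 4983 in WT cells without LPS, and 3327 against 5132 in WT cells with LPS. LPS in WT cells in normal M-CSF gave 2594 against 4061. The interactions gave 97 against 519 and 1 against 617 for genotype by medium without and with LPS, 91 against 1800 and 0 against 60 for genotype by LPS in low and normal M-CSF, and 1702 against 3971 and 853 against 2649 for medium by LPS in T2KO and WT cells. Without 1 library, the lowest counts were 222 in genotype in normal M-CSF with LPS and 322 in genotype by medium with LPS, both without WT library 2 in normal M-CSF with LPS, and 30 in genotype by LPS in normal M-CSF, without T2KO library 2 in normal M-CSF without LPS.

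Same-numbered libraries of compared groups correlated over 0.1 in 10 of 48 library pairs (range -0.377 to 0.333), and 15 of 48 correlated best with their own number. In the genotype comparison in normal M-CSF with LPS, every library correlated best with its own number (0.0662 to 0.194). These counts do not settle whether the numbers pair the samples. The replicate block changed no call, and the number of members called stayed at 3, 3, 4 and 3 for genotype, 5, 4, 4 and 6 for medium, 5, 4, 6 and 4 for LPS and 1, 2, 1, 0, 2 and 4 for the interactions. Low counts limit Nr1h3 in all groups and Rxra with LPS.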
